A study of Mus musculus with 4 samples.

Results

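Polycomb repressive complex 2 (PRC2) is the enzyme that methylates lysine 27 of histone H3, a mark of silenced developmental genes. Its genes were examined here for peaks of the RNA helicase DHX9 in mouse embryonic stem (ES) cells. The members were 9 genes of core and accessory subunits, Jarid2, Ezh1, Ezh2, Suz12, Eed, Mtf2, Aebp2, Phf19 and Rbbp4, out of 21900 protein-coding genes in the gene table. All 9 were found. A peak was counted for a gene when its midpoint lay between the annotated first and last base of that gene on mm10, on either strand. By this rule 492 of the 59563 peaks in the deposited list (0.826%) belonged to the 9 genes.

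The core of PRC2 is made of a catalytic subunit, EZH2 or its paralog EZH1, with EED, which reads the methyl mark, SUZ12, the scaffold, and the histone-binding protein RBBP4 or its paralog RBBP7. Accessory subunits give the complex alternative forms: MTF2 and PHF19 belong to the Polycomb-like family, and JARID2 and AEBP2 define the other form. In ES cells PRC2 keeps lineage genes silent, and JARID2 and MTF2 are known for helping to recruit it. DHX9 unwinds RNA duplexes, and a CLIP peak in a gene marks a stretch of that gene's RNA recovered with the protein after ultraviolet crosslinking.

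The cells were WT26, a feeder-independent male ES line of C57BL/6x129sV background grown with serum and leukemia inhibitory factor. RNA bound by the protein was recovered by FLASH, a CLIP-seq method, with a rabbit antibody against DHX9 (2 samples, A and B) and with rabbit IgG as the control (2 samples, A and B), both in the same line. The replicates were described as biological, and all 4 samples share this line. The files hold 1 peak list for the series, which states for every peak where it begins and ends and on which strand. The score was empty for all 59563 peaks, so the depth behind a peak is unknown. The list has no value per replicate or for IgG, and the counts below therefore carry no replicate error. How much RNA each gene made was not in the files, and its part in the counts was not tested. All 8 ES cell markers examined, Pou5f1, Sox2, Nanog, Esrrb, Sall4, Tdh, Zfp42 and Dppa4, held peaks (213 in all), although all 6 peaks of Sox2 and 19 of the 38 of Tdh also lay in another gene. None of 5 fibroblast markers and none of 5 trophoblast and endoderm markers did, and of 4 neuronal markers Tubb3 held 7. The only other peak in a neuronal marker, in Syn1, lay in another gene as well and on the strand opposite to Syn1.

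DHX9 peaks were called in 8 of the 9 PRC2 genes, and the number per gene ran from 205 in Jarid2 to none in Phf19. Over all protein-coding genes, 22.8% held at least 1 peak, and 33.4% of those of 20 to 65 kb did, the range that takes in every member but Jarid2. At least 20 peaks were called in 7 of the 9, against 3.75% of all protein-coding genes and 6.99% of those of 20 to 65 kb. The median over the 9 members was 29 peaks, and over all protein-coding genes it was 0. Jarid2, Suz12 and Mtf2 together held 364 of the 492 peaks (74.0%).

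**Figure D1:**
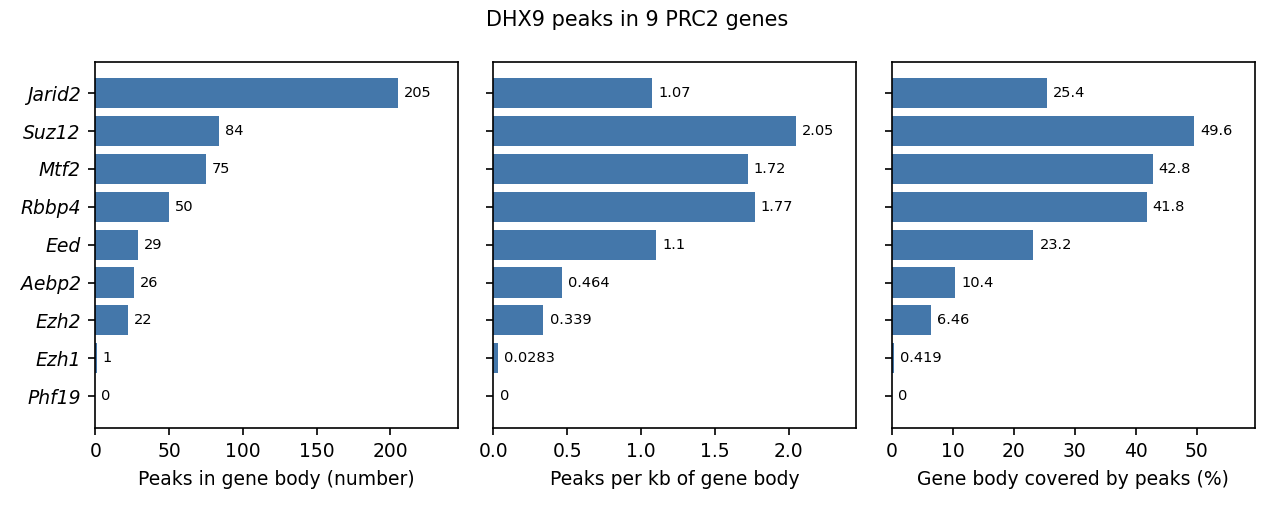
Number of DHX9 peaks with their midpoint in each gene body (left), peaks per kb of gene body (middle) and percent of the gene body covered by peaks (right), for the 9 PRC2 genes from 1 deposited list, so that there are no error bars. Jarid2 has the most peaks (205), while Suz12 has the most per kb (2.05) and the largest covered share (49.6%).

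Among the core genes, Suz12 was the most densely covered. Suz12 (chromosome 11, 79993106 to 80034123, plus strand, 41.02 kb) held 84 peaks, or 2.05 per kb, which covered 49.6% of its gene body. Of the 2192 other protein-coding genes of 0.8 to 1.25 times its length, 3 held as many peaks or more. By peaks per kb it stood 23rd among the 2330 protein-coding genes that hold 5 or more peaks and span 10 kb or more. The peaks of Suz12 were 65 to 513 bases wide, with a median of 220 bases, and the median gap between neighbours was 106 bases. Of its peaks, 51 followed each other with gaps of at most 1 kb over the first 20.1 kb of the gene, and another 29 did so between 21.8 and 34.5 kb from its start. Peaks therefore ran along nearly the whole of Suz12, and the longest stretch without one was 2.90 kb.

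Rbbp4 (chromosome 4, 129307100 to 129335370, minus strand, 28.27 kb), the gene of the histone chaperone subunit, came next among the core genes with 50 peaks, or 1.77 per kb. They covered 41.8% of its body, and 21 of 2657 genes of like length held as many. Of its peaks, 46 lay in no other gene, and 4 at its 3' end also lay inside the body of Sync, an intermediate filament protein gene annotated on the plus strand. Eed (chromosome 7, 89954654 to 89980976, minus strand, 26.32 kb), the gene of the subunit that reads the methyl mark, held 29 peaks at 1.10 per kb and 23.2% covered. Of 2732 genes of like length, 87 held as many. In Eed the peaks stood mostly in the middle: 16 of the 29 lay in a run from 8.24 to 15.2 kb from the start, no midpoint lay within the first 3.34 kb, and between 18.8 and 25.5 kb there was no peak at all before a last one of 489 bases at the 3' end.

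The genes of the catalytic paralogs, Ezh2 and Ezh1, differed in their counts. Ezh2 (chromosome 6, 47530274 to 47595270, minus strand, 64997 bases), which encodes the main methyltransferase of dividing cells, held 22 peaks at 0.339 per kb, covering 6.46% of its body. Of 1683 genes of like length, 153 held as many. Its peaks gathered in a few places: 11 lay within 3.65 kb (chromosome 6, 47547410 to 47551061), at 44.2 to 47.9 kb from the gene start, and 5 lay between 7.50 and 9.91 kb. The final 17.1 kb held none. Ezh1 (chromosome 11, 101191115 to 101226463, minus strand, 35.35 kb), which encodes the methyltransferase known mainly from resting cells, held 1 peak of 148 bases (101198333 to 101198480), 28.1 kb from its start. At least 1 peak was also called in 830 of 2381 genes of like length (34.9%), so that Ezh1 did not stand out from them. Suz12 and Ezh1 lie on the same chromosome and are similar in length, and Suz12 had 72.4 times the peaks per kb of Ezh1. On chromosome 11, 29.3% of protein-coding genes held a peak. The list gives no error with which to test this difference, and RNA amounts were not measured.

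Among the accessory genes the counts spanned the full range. Jarid2 (chromosome 13, 44730774 to 44921643, plus strand, 190.9 kb), the gene of the PRC2 cofactor, held 205 peaks, 41.7% of the members' peaks. Its density of 1.07 per kb was close to that of Eed, and its peaks covered 25.4% of the gene body. Of 662 protein-coding genes of like length, 1 held as many, and 31.3% of those of 150 to 250 kb held any peak. Mtf2 (chromosome 5, 108065660 to 108109219, plus strand, 43.56 kb), the gene of a Polycomb-like protein, held 75 peaks at 1.72 per kb with 42.8% covered, and 11 of 2141 genes of like length held as many. Aebp2 (chromosome 6, 140622454 to 140678472, plus strand, 56.02 kb), the gene of a zinc finger cofactor, held 26 peaks at 0.464 per kb with 10.4% covered, and 126 of 1836 genes of like length held as many. Phf19 (chromosome 2, 34893752 to 34914353, minus strand, 20.6 kb), the gene of the other Polycomb-like protein on the list, held no peak, and none lay within 10 kb on either side of it. A peak was called in 780 of 2763 genes of like length (28.2%). In order of peaks per kb the members ran Suz12, Rbbp4, Mtf2, Eed, Jarid2, Aebp2, Ezh2, Ezh1 and Phf19. Without replicate values it cannot be said which neighbours in this order differ.

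**Figure D2:**
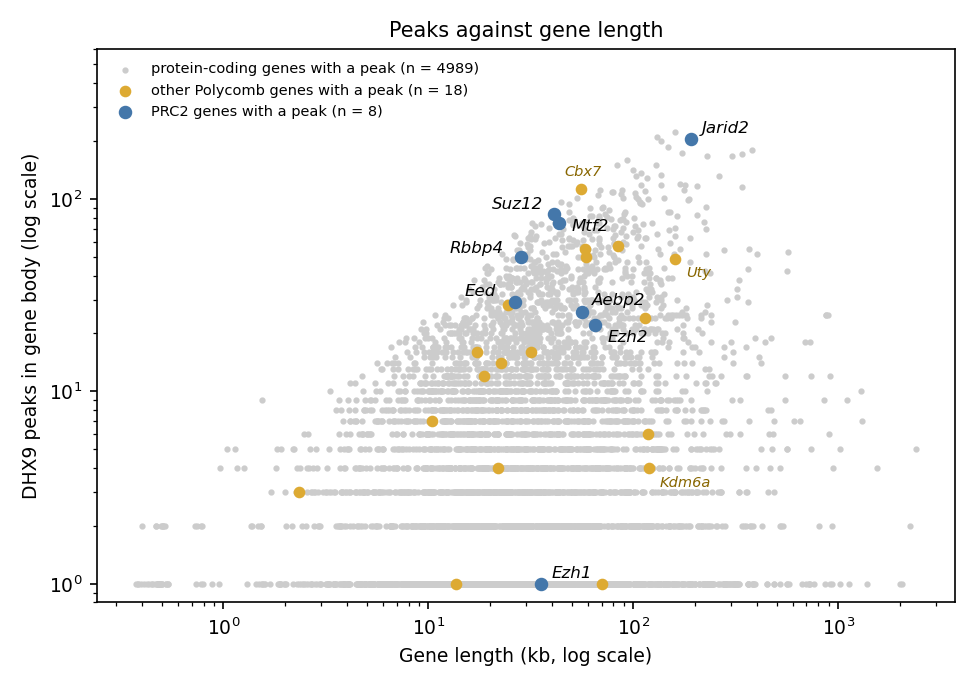
Number of DHX9 peaks in the gene body (vertical, log scale) against gene length in kb (horizontal, log scale) for the 4989 protein-coding genes with a peak (grey), 18 other Polycomb genes (yellow) and 8 PRC2 genes (blue); genes without a peak, Phf19 among them, are not drawn. Suz12, Mtf2, Rbbp4 and Jarid2 lie at the upper edge of the cloud for their lengths, and Ezh1 lies at its floor of 1 peak.

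The median peak of the members was 204.5 bases wide (quartiles 156 and 286.5), and that of all 59563 peaks was 196 bases wide (quartiles 146 and 268). Within each member with at least 5 peaks, the median gap on the gene strand was between 106 bases in Suz12 and 298 bases in Aebp2, and over the whole list it was 303 bases. The members' gaps lie within 1 gene, whereas the value for the list is not given by gene, so these are not like measures. Joining peaks of 1 strand at most 50 bases apart left 385 of the members' 492. Jarid2 then had 161, Suz12 65, Mtf2 56, Rbbp4 36, Eed and Aebp2 23 each, Ezh2 20 and Ezh1 1, which kept the order of the counts apart from that tie.

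The start sites are shown because peaks in 4 of the genes reached them. The promoter table of RefSeq (GRCm38.p6, the assembly of mm10) has 13 start windows for the 9 genes, each from 250 bases before a start to 50 bases from it. A peak on the gene strand overlapped 4 of the 13 windows, those of Suz12, Ezh2, the first start of Mtf2 and the second start of Aebp2. Over protein-coding genes with a peak in their body, 7.57% of 5208 windows overlapped one. These shares are not like measures, because the 13 windows include that of Phf19, which held no peak. Genes with a peak also held a median of 5 peaks, against 22 to 84 in the 4 genes with an overlapped window. No window overlapped a peak on the opposite strand. The sequences below run 5' to 3' on the gene strand from 100 bases before the start to 30 bases from it, with the bases under a DHX9 peak in capitals. The windows of Jarid2, with the most peaks, and Ezh1, with 1 peak, are given for comparison.
Suz12 (chr11:79993006-79993135, plus strand): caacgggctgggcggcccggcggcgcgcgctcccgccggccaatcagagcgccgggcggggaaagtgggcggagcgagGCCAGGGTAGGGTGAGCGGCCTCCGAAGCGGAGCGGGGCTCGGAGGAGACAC
Mtf2 (chr5:108065574-108065703, plus strand): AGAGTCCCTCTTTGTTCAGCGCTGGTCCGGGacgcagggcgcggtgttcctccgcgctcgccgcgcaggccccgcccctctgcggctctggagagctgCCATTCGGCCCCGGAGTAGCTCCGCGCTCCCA
Ezh2 (chr6:47595001-47595130, minus strand): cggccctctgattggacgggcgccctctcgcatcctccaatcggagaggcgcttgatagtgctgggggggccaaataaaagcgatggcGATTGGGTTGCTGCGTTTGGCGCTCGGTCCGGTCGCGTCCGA
Aebp2 (chr6:140624809-140624938, plus strand): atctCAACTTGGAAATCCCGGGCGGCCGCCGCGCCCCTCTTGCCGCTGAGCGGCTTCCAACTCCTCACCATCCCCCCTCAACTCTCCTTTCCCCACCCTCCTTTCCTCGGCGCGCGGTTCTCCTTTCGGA
Jarid2 (chr13:44730674-44730803, plus strand): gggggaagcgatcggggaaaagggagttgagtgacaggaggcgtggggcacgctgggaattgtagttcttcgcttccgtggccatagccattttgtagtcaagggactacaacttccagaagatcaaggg
Ezh1 (chr11:101226434-101226563, minus strand): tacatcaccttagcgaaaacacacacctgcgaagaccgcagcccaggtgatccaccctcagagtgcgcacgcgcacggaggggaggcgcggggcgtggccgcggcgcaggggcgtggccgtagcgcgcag

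In Suz12 a peak of 316 bases began 22 bases before the annotated start and ran on into the gene. In Ezh2 a peak of 240 bases began 12 bases before the start site of its window. That site lies 0.24 kb inside the gene body, so the whole peak lay within the gene. In Mtf2 a peak of 250 bases began 2 bases before the first start site, which lies 0.014 kb inside the gene body. Another of 251 bases lay wholly upstream and ended 70 bases before that site, so that both ends of the printed stretch are in capitals. In Aebp2 a peak of 207 bases spanned the second of 3 annotated starts (chromosome 6, 140624909), from 96 bases before it. That start lies 2.455 kb inside the gene body. Another peak of 181 bases ended 153 bases before that start, outside the printed stretch. The windows of the outer starts had none. The Jarid2 stretch has no capitals because its nearest peak midpoint on the gene strand lay 0.675 kb into the gene. The windows of Rbbp4, Eed, Ezh1 and Phf19 were also without a peak.

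By base composition the 13 windows ranged from 45.7 to 74.3% G and C, with a median of 62.7%, and the median over windows of protein-coding genes with a peak was 61.7%. GGGCGG, a letter match to the GC box, was present on either strand in 8 of the 13 windows and in 64.9% of those windows of protein-coding genes with a peak. CCAAT was present in 8 of 13 and in 38.1%, and TATAAA in 1 of 13, the second start of Jarid2, and in 6.59%. Matches of GGGCGG and CCAAT on opposite strands can share letters, and such overlaps were not counted. A match describes only the letters of the window.

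Read along the genes, the members had on average fewer peaks in the last 20% of the gene body than in the first. In the 7 members with at least 5 peaks, on average 6.53% ± 6.92 (SD, n = 7 genes) of a gene's peaks lay in the last 20% of the gene body, and 23.8% ± 12.0 in the first 20%. Over 2023 protein-coding genes with at least 5 peaks on a known gene strand, the means were 12.56% for the last 20% and 25.75% for the first 20%. More peaks lay in the first than in the last 20% in 6 of the 7 members. The exception was Rbbp4, with 8 peaks in the first and 10 in the last 20%. Aebp2 held none in the last 40% of its body, since its final peak midpoint was at 53.6% of its length and the remaining 25.9 kb had no peak. Ezh2 held none in the last 20%, Eed 1, Mtf2 4 and Suz12 8. Exons and introns were not analysed here. RNA levels along the genes were not measured, so less RNA and less binding towards the 3' end cannot be told apart.

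**Figure D3:**
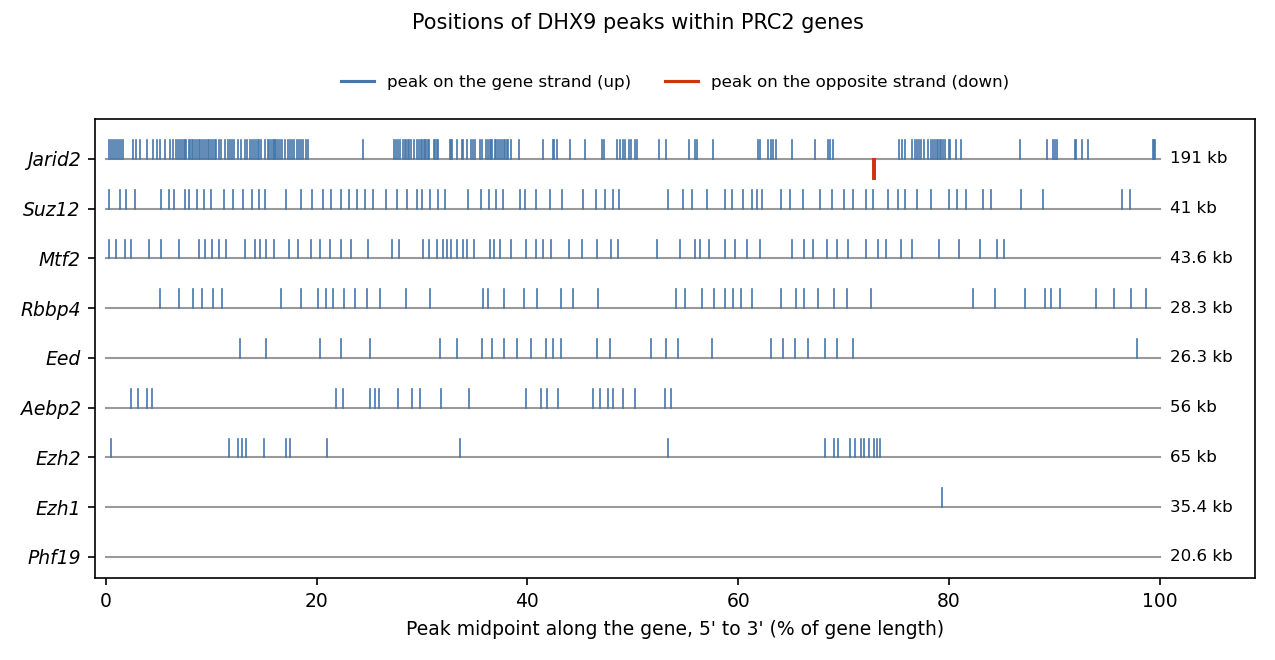
Midpoints of all 492 peaks along the 9 PRC2 genes, drawn from the annotated 5' end (0%) to the 3' end (100%), with gene lengths at the right; blue lines point up for peaks on the gene strand and red lines point down for the opposite strand. Suz12 and Mtf2 are filled along most of their length, Aebp2 and Ezh2 in patches, and the only red marks are 2 in Jarid2.

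The genes differed in where their peaks were densest. Mtf2 was filled from its start, with 50 of its 75 peaks in 1 run over the first 21.2 kb, and its last 6.41 kb had no peak. In Aebp2, 4 peaks lay between 1.16 and 2.56 kb from the start, and the other 22 lay further on, the last at 30.02 kb. Ezh2 had peaks mainly at 2 places, with 8 in the first 20% of its body and 11 between 60 and 80% of it. In Eed the first 20% held 2 of 29 peaks (6.90%, 95% Wilson interval 1.91 to 22.0%), and in Suz12 it held 21 of 84 (25.0%, 17.0 to 35.2%). These intervals cover counting error only and take no account of the fact that peaks lie in runs. The same holds for the other intervals given above and below.

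**Figure D4:**
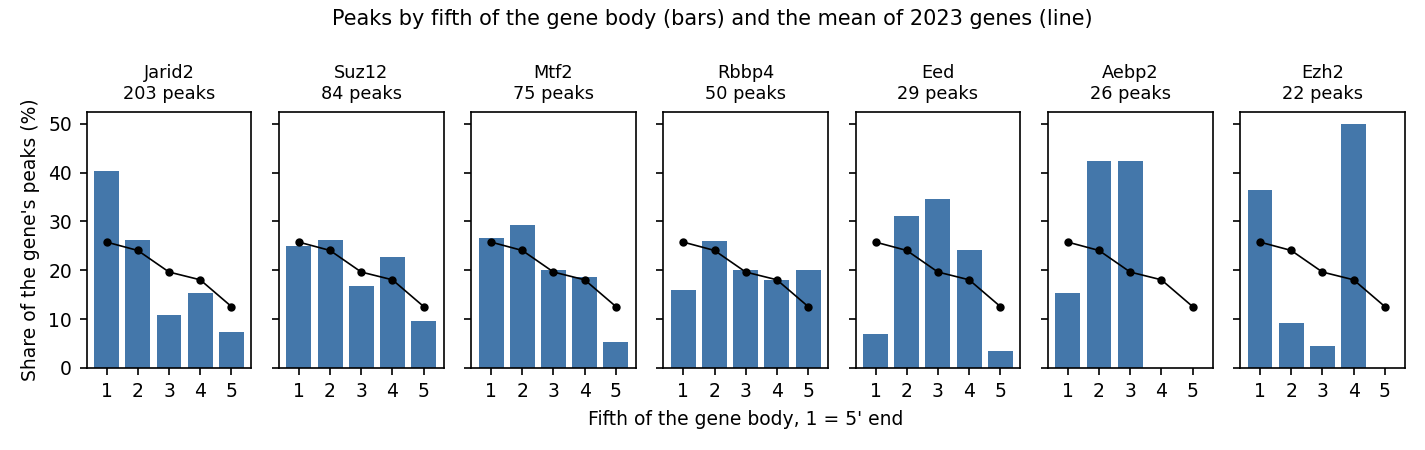
Share of each gene's peaks (percent, vertical) in successive parts of 20% of the gene body from the 5' end (horizontal), as bars for the 7 members with at least 5 peaks on the gene strand; the black line is the mean over 2023 protein-coding genes. Jarid2 falls from 40.4% to 7.39%, while Ezh2 is high in the first and the fourth part and Aebp2 is empty in the last 2.

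In Jarid2 the peaks gathered in separate stretches. The first 20% of the gene body held 82 of the 203 peaks on its strand (40.4%, 95% Wilson interval 33.9 to 47.3%) and the last 20% held 15 (7.39%, 4.53 to 11.8%). In 81 protein-coding genes of 150 to 250 kb with at least 5 peaks, the first 20% held a mean of 35.1% and a median of 28.6%, so Jarid2 lay above both, and the mean fell within its interval. Of the 2023 genes of any length, 77.5% had a lower share than Jarid2. A run of 74 peaks covered the stretch from 4.71 to 36.9 kb from the start. Between 40 and 50 kb there was 1 peak. Runs of 24 and 27 peaks followed at 52.1 to 60.2 kb and at 62.3 to 73.5 kb, and a run of 20 at 145.9 to 154.9 kb. Counted in successive bins of 5 kb from the gene start, the most peaks were 16, between 15 and 20 kb. The longest stretch without a peak was 11.7 kb, from 177.9 to 189.6 kb. Peaks were also wider near the start, with a median width of 265 bases in the first 20% of the gene body and of 153 to 192 bases in the other parts. Of the peaks at least 196 bases wide, the first 20% held 57.0%.

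**Figure D5:**
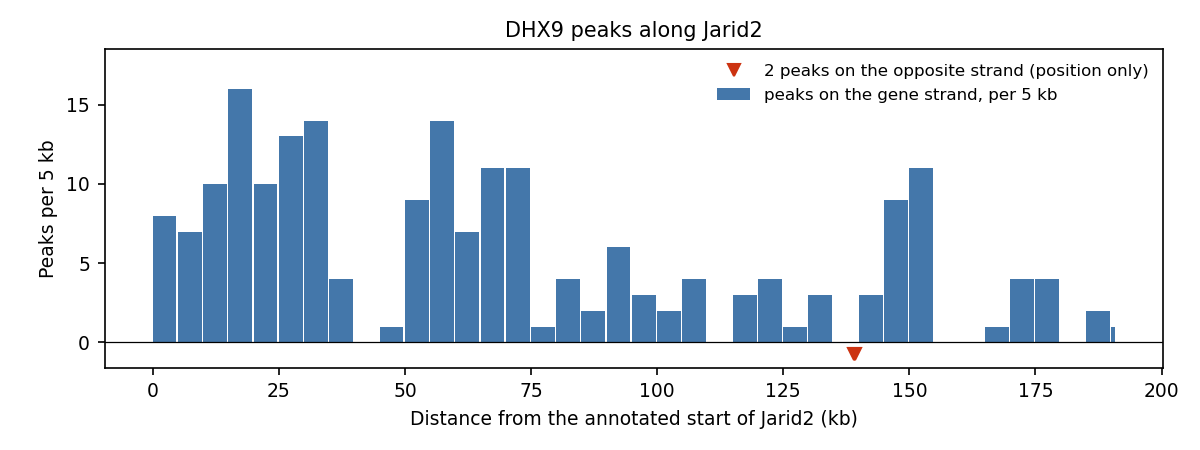
Peaks on the gene strand per 5 kb (vertical, number) against distance in kb from the annotated start of Jarid2 (horizontal); red triangles mark only the position of the 2 opposite-strand peaks. The first 35 kb hold 7 to 16 peaks per 5 kb, and a separate group of 9 and 11 stands at 145 to 155 kb.

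Nearly all peaks lay on the strand of the gene that held them. Across the 9 members 2 of 492 peaks (0.407%, 95% Wilson interval 0.112 to 1.47%) were on the opposite strand, and both were in Jarid2. With peaks at most 50 bases apart joined, the share was 0.260%, since these 2 overlap. Among peaks in a protein-coding gene of known strand and in no other gene, 0.989% were opposite, so the members were near the background. An opposite peak was present in 1 of the 8 members with peaks and in 5.25% of such genes. The 7 other members with peaks had none. The opposite peaks in Jarid2 overlapped each other by 96 bases (chromosome 13, 44869560 to 44869992 and 44869897 to 44870083, minus strand) and were 433 and 187 bases wide. They lay 139.0 and 139.2 kb from the gene start, in a thin part of the gene: the closest plus-strand peak (44874303 to 44874486) was 4219 bases away, and no plus-strand peak overlapped them. No other gene is annotated there in the table. Of 29 protein-coding genes with at least 100 peaks in no other gene and a known strand, 2 held an opposite peak, Jarid2 among them.

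At 2 members the peaks ran on past the annotated gene. Upstream of Mtf2, 12 peaks of 87 to 521 bases lay on the plus strand in no annotated gene (chromosome 5, 108061930 to 108065604). They formed an unbroken series, each at most 1 kb from the next, that reached 3.73 kb before the annotated start and joined the peaks inside the gene across a gap of 67 bases. Downstream of Rbbp4, 10 peaks of 124 to 391 bases on the minus strand (chromosome 4, 129303405 to 129307073) continued its series for 3.69 kb past its annotated 3' end. These lay inside Sync, whose 14 peaks were all on the minus strand, opposite to the plus strand annotated for Sync; 4 of the 14 were the peaks shared with Rbbp4. Series of at least 10 such peaks were found upstream of 2 of 668 protein-coding genes with at least 20 peaks and a known strand (0.299%), and downstream of 5 of the 668 (0.749%), each count including the member. These series were noticed in the data first and then counted. The other 6 members with peaks had no such series at either end. Transcript ends in these cells were not measured, so longer transcripts and separate transcripts cannot be told apart.

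Peaks were also present in 18 of 36 other Polycomb genes (50%, against 22.8% of all protein-coding genes), at a median of 0.5 peaks over the 36. These genes had a median length of 49.41 kb, against 17.15 kb over all protein-coding genes. Of protein-coding genes of 20 to 65 kb, 33.4% held a peak. Of the other PRC2 subunit genes, Rbbp7, the X-linked paralog of Rbbp4, held 12 peaks at 0.641 per kb over 18.72 kb, against 1.77 per kb in Rbbp4. Lcor, whose locus encodes the PRC2 partner PALI1, held 24, and the short gene Epop, which encodes an elongin-binding partner, held 3 that covered 29.7% of its 2.33 kb. Phf1, the third Polycomb-like gene, and Lcorl held none. Among the Polycomb-like genes, peaks were thus called in Mtf2 but not in Phf19 or Phf1. Phf1 spans only 4.782 kb, against 43.56 kb for Mtf2, and the part of gene length in this difference was not tested.

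Of 24 genes of PRC1, the complex that binds the PRC2 mark and ubiquitinates histone H2A, 10 held peaks (41.7%). The share was 22.8% over all protein-coding genes and 33.4% over those of 20 to 65 kb, and the PRC1 genes had a median length of 38.66 kb. Cbx7, which encodes a chromodomain reader of the mark, held 113 (2.04 per kb, near the density of Suz12), of which 106 lay in no other gene. Rybp, the gene of a subunit of variant PRC1, held 50, and L3mbtl2, of another variant, held 28. The catalytic subunit gene Rnf2 (31.59 kb) held 16 and its much shorter paralog Ring1 (3.889 kb) none. Among the genes that act against Polycomb marks, the H3K27 demethylase genes Kdm6a and Kdm6b held 4 each and Uty, the Y-linked relative of Kdm6a, held 49. Asxl1 (58.18 kb) and Asxl2 (83.95 kb), which encode cofactors of the H2A deubiquitinase, held 55 and 57. Their paralog Asxl3 (186.2 kb) held none. Bap1, the gene of the deubiquitinase's catalytic subunit, spans 8.579 kb and held none. No peak in the PRC2 genes overlapped a microRNA, since none of the 9 gene bodies holds an annotated microRNA hairpin.

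The genes most like Jarid2 in peak number and length, by the distance in log2 peaks and log2 length over all protein-coding genes with a peak, were Kat6b (173 peaks over 173.3 kb, distance 0.282), Ankrd11 (222 over 159.0 kb, 0.288), Cobl (168 over 228.3 kb, 0.386), Rbpms (186 over 147.3 kb, 0.399) and Ctbp2 (199 over 137.0 kb, 0.480). Kat6b encodes a histone acetyltransferase, Ankrd11 a chromatin regulator, Cobl an actin nucleator, Rbpms an RNA-binding protein and Ctbp2 a corepressor. The first 20% of the gene body held 37.6% of the peaks in Kat6b, 32.9% in Ankrd11, 41.1% in Cobl and 37.7% in Ctbp2, next to 40.4% in Jarid2. For Rbpms no such share was available.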

How the data were processed

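FLASH adapters held random tags by which PCR duplicates were merged, and IgG and DHX9 material was pooled after adapter ligation, per the labels' protocols. The peak positions that the authors deposited come from PEAKachu, per the source column of the file; no source used here states its settings or how IgG entered. Bowtie2 2.2.6 and the builds hg19 and mm10 are named in the submitters' processing notes, and mm10 was taken for this mouse list. The treatment of reads shared by paralogs is not given in the sources used here.

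Gene bodies came from a RefSeq table of GRCm38.p6, and strands and start sites from its promoter table. Peaks were assigned by midpoint, counted, ranked, joined into runs (gaps of at most 1 kb) and placed along genes with Python 3.11.15, pandas 2.3.3 and scipy 1.17.1. Genes of like length were 0.8 to 1.25 times a member's length. No significance test was made, because the list holds no value per sample. Named genes were every member, every other listed PRC2 subunit and the 6 other Polycomb genes with the most peaks. By the same rule the 5 genes most like Jarid2 and genes sharing a member's peaks were named. Rnf2, Ring1, Kdm6a, Kdm6b, Asxl3 and Bap1 lie outside this rule and were picked with their values in view. The members and lists were chosen with earlier results of these data known. The counting was tested on simulated peaks, and all 200 of 200 genes returned their counts. Alternatives were any overlap, whole peaks inside the gene, wider peaks, merged peaks, the main strand, peaks in no other gene and at least 3 peaks per gene. Exons, introns and repeats were not analysed here.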

Additional observations from a re-analysis of the deposited data

How the results depend on the processing

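Of 26 recomputed values of the main comparisons, 23 stayed within 1.5 times the count or within the 95% Wilson interval of the share. When peaks narrower than the list's median were left out, the members held 264 peaks in place of 492, and the first 20% of the gene body held 37.6% of the peaks pooled over 7 members in place of 29.7% (145 of 489). As a share of covered bases that value was 35.0%; Jarid2 supplied most of the pooled peaks in the first 20%. With at least 3 peaks per gene, 7 members and 16 other Polycomb genes remained. Ezh1's single peak is narrower than the median, so that it had none among the wider peaks. No paired analysis was possible because the list holds no value per sample, and leaving out replicates was not possible for the same reason. The unknown depth limits every count: a gene without a peak is not shown to be unbound.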

Other observations

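Within 10 kb outside the members' ends, few other peaks were found beside the series at Mtf2 and Rbbp4. Upstream of Rbbp4, 2 peaks lay on the opposite strand inside Zbtb8os, and downstream of Eed, 1 peak on the gene strand lay 5.33 kb past its end in no gene. No peak midpoint lay within 10 kb outside either end of Jarid2, Ezh1, Ezh2, Suz12, Aebp2 or Phf19.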
